A study of Mus musculus with 11 samples.

Results

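Ly6a, Ly6c1, Ly6c2, Ly6e, Ly6i and Ly6g, which belong to the Ly6 family of surface proteins, were followed through all 11 single-cell libraries of macs sorted from 5 tissues of WT and Zeb2KO mice. They were chosen by name, as 6 of the 27998 genes in the count tables, and all 6 had a row in every library. Zeb2 encodes a zinc finger transcription factor that is expressed in tissue-resident macs.

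Each tissue gave 1 WT library, from Zeb2fl/fl mice without Cre, and 1 Zeb2KO library, from mice that carry a Cre transgene beside the floxed Zeb2 allele. The tissues were brain (microglia), colon (CMs), liver (KCs), lung (AMs) and spleen (SMs). A further WT liver library came from Nr1h3fl/fl mice without Cre. The labels give Fcgr1-cre as the transgene of every Zeb2KO library. According to the study's methods, however, KCs were targeted with Clec4f-cre and AMs with Itgax-cre, so the groups are called Zeb2KO here. The labels do not say how many mice each library holds. According to the study, Fcgr1-cre also acts in B cells, T cells and cDCs, and macs that kept a Zeb2 allele remained in every organ other than the brain. Mice were of both sexes on a C57Bl/6 background, and by the study's methods they were young adults of a few weeks of age unless stated otherwise. KCs were sorted on Clec4F, CD64 and F4/80, AMs on CD11c, SiglecF, CD64 and F4/80, and microglia as CD45int cells with CD64 and F4/80. CMs and SMs were sorted on CD64 and F4/80 after cells with Ly6C, Ly6G or SiglecF on their surface had been gated out, so the surface products of Ly6c1, Ly6c2 and Ly6g were selected against in those tissues alone.

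Ly6 proteins are small, disulphide-rich proteins that are held on the outside of the plasma membrane by a GPI anchor. Several of them serve as surface markers in haematology. Ly6a is Sca-1, a marker of haematopoietic stem and progenitor cells, and Ly6e was first described on thymocytes and stem cells. Ly6C, the product of Ly6c1 and Ly6c2, separates classical monocytes from their descendants, and Ly6G marks neutrophils. Ly6a and Ly6e are both known to be induced by interferon.

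All 6 genes lie on mouse chromosome 15 (GRCm38), within 204 kb. In the order of their positions these are Ly6e (74955051 to 74959905, plus strand), Ly6i (74979534 to 74983430, minus strand), Ly6a (74994877 to 74998031, minus strand), Ly6c1 (75044018 to 75048830, minus strand), Ly6c2 (75108158 to 75111970, minus strand) and Ly6g (75155240 to 75159126, plus strand). Members differ in how closely they resemble each other. The coding parts of Ly6c1 and Ly6c2 were identical at 97.7% of their 393 positions. Ly6a and Ly6i were identical at 86.3% of aligned positions, and Ly6e was at most 55.7% identical to any other member. The first coding bases hold the densest run of differences between Ly6c1 and Ly6c2, and the last coding bases lie nearest to the 3′ end that the assay counts. Both stretches are shown from the GENCODE M21 transcripts, 5′ to 3′, because they show how few letters separate the members whose counts are compared below. In the first pair of lines, coding bases 7 to 36, capitals mark the 5 positions at which both genes differ.

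Ly6c1, bases 7 to 36: aCtTctcacActacaaagtcctgtGtgctC

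Ly6c2, bases 7 to 36: aGtActcacGctacaaagtcctgtTtgctG

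In the lines for the last 30 coding bases before the stop codon, capitals mark bases that differ from Ly6c2.

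Ly6c2, last 30 bases: ctgagctcagtcatcctgcagaccttgctc

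Ly6c1, last 30 bases: ctgagctcagtcGtcctgcagaccttgctc

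Ly6g, last 30 bases: ctgGTTtcagtcCtTctgcagaccttTctc

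Ly6c1 carries 1 different base in this stretch and Ly6g carries 6. Reads were 98 bases long. Of the 98-base windows in the last 500 bases of the annotated transcripts, 17.2% of those of Ly6c2 also occurred in Ly6c1, and 11.5% of those of Ly6c1 also occurred in Ly6c2 or Ly6a. No such window of Ly6a, Ly6e, Ly6i or Ly6g occurred in another gene's transcripts. How the counting treated a read that fits several genes is not given in the sources used here, so the split between Ly6c1 and Ly6c2 is uncertain and their sum is given beside them. RefSeq promoters (GRCm38.p6, 250 bases before to 50 bases after the start) were at hand for 3 of the 6 members, Ly6c1, Ly6c2 and Ly6g. None held CACCTG, the E-box letters that ZEB proteins bind, on either strand, against 20.2% of 32851 promoters, and none held TTCNNNGAA, the letters of a STAT site, against 8.30%.

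Of 51712 barcodes 45310 were kept once outlying cells and the clusters that scored for another cell type had been taken out. Some kept clusters were still led by genes of other types, as colon cluster 13 (69 cells) by the smooth muscle genes Myh11 and Acta2, and liver cluster 13 (209 cells) by Cd209a, Ccl22 and Flt3, which are known from dendritic cells. Without these and 3 more such clusters of liver and spleen, chosen after seeing the data, the log2 ratio of Ly6a was 1.69 in CMs, against 1.65, 1.53 in KCs, against 1.49, and 4.13 in SMs, against 3.31. A library held 2830 to 6974 kept cells and 8260539 to 43317866 UMIs, with a median of 2225 to 9208.5 UMIs a cell. The summed level of each list of tissue mac markers was highest in the libraries of its own tissue. For example the summed level of 6 KC markers was 7491 to 15848 CPM (a gene's UMIs scaled to a library of 1000000 UMIs) in the 3 liver libraries and at most 1251 CPM elsewhere. Single listed genes could be higher elsewhere. Cx3cr1 of the CM list was 578 CPM in WT CMs and 2923 CPM in WT microglia, and Cd5l of the SM list was 671 CPM in WT SMs and 5232 CPM in WT KCs. Zeb2 counts did not check the genotype labels, because the floxed allele still yields a shortened message whose 3′ end the assay counts. Over the 5 tissue pairs the log2 difference of Zeb2 was 0.88 (SE 0.26, adjusted p = 0.302, edgeR's quasi-likelihood test), on the side of Zeb2KO. Libraries shared at most 76 cell barcodes, between both lung libraries. With 1 library per tissue and genotype no test was possible within a tissue, and all intervals below (95%, exact Poisson for levels and exact Clopper-Pearson for shares) cover counting error only.

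Ly6e was the member with the highest UMI count in every library and at least 87.2% of WT macs outside the lung held a UMI of it. Its level was 1162 CPM in WT and 3170 CPM in Zeb2KO microglia, 495 and 1078 CPM in CMs, 2434 and 2531 CPM in KCs, 77.9 and 406 CPM in AMs, and 1232 and 1737 CPM in SMs. The Nr1h3fl/fl WT liver library gave 2548 CPM. WT AMs were lowest and the liver libraries were highest among WT macs, and every Zeb2KO library stood above the Zeb2fl/fl WT library of its tissue. In WT macs the order was liver, spleen, microglia, colon and lung, and the intervals of the Nr1h3fl/fl WT and the Zeb2KO liver libraries overlapped. UMIs are counted at transcript ends, so no length correction applies, and Ly6e made up 68.0% (Zeb2KO KCs) to 98.7% (WT microglia) of the UMIs of the 6 members.

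**Figure D1:**
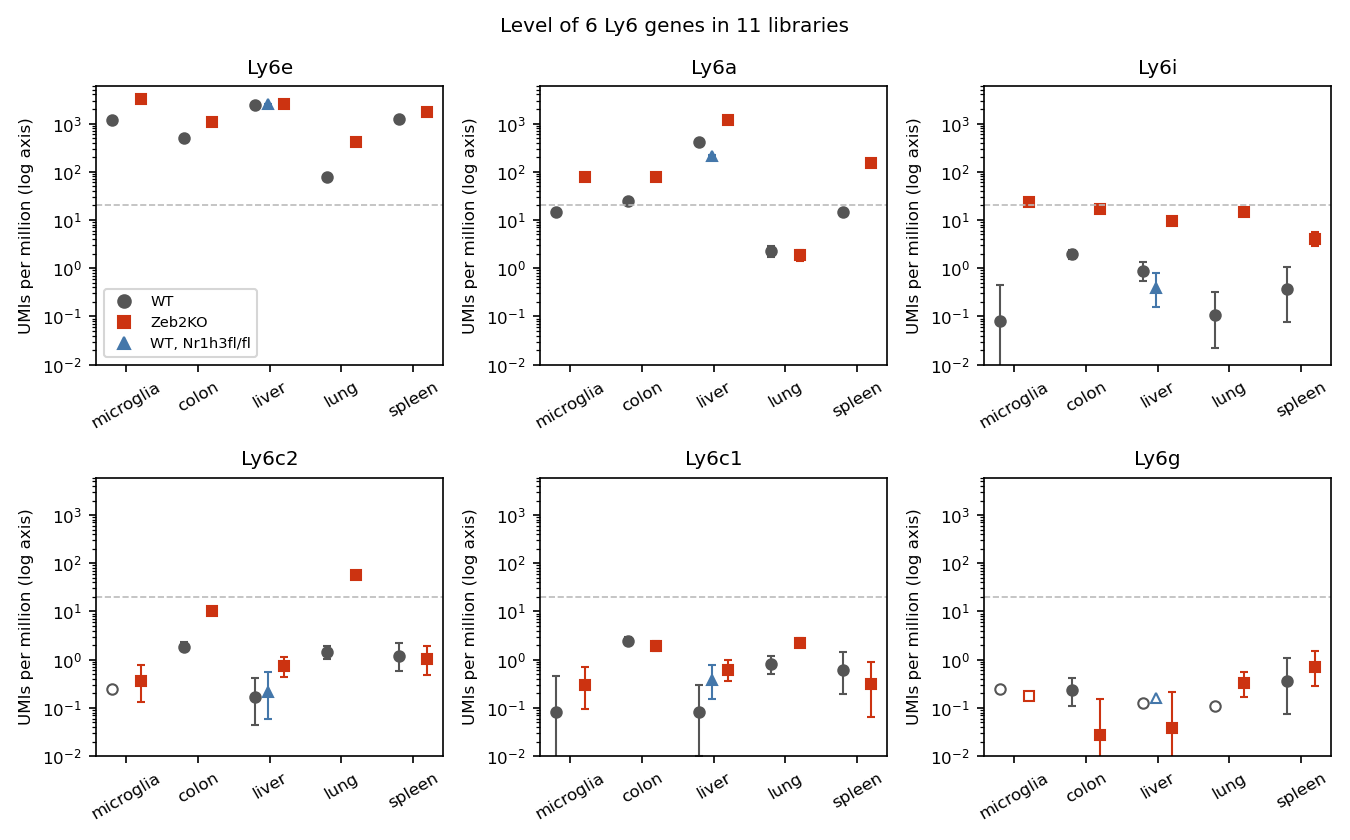
CPM of the 6 genes by tissue on a log axis, with exact Poisson 95% intervals (WT grey circles, Zeb2KO red squares, Nr1h3fl/fl WT blue triangles). Open symbols stand for 0 UMIs and are drawn at the level of 3 UMIs, and the dashed line is at 20 CPM. Ly6e and Ly6i are higher in Zeb2KO than in Zeb2fl/fl WT in every tissue, and Ly6g stays below 1 CPM in every library.

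A gene was called higher or lower where its log2 ratio of CPM plus 1 reached a size of 1 and the higher library held at least 20 CPM. By this rule Ly6e was higher in Zeb2KO microglia, 2.73-fold (interval 2.68 to 2.78), in Zeb2KO CMs, 2.18-fold (2.14 to 2.21), and in Zeb2KO AMs, 5.21-fold (4.98 to 5.45). In SMs it was 1.41-fold (1.38 to 1.45) as high, which did not reach the rule. In KCs the ratio was 1.04-fold (1.03 to 1.05), no further from 1 than the 1.05-fold (1.03 to 1.06) between the WT liver libraries. In cells thinned to 1000 UMIs each, 65.4% of WT and 92.5% of Zeb2KO microglia, 36.0% and 62.0% of CMs, 7.03% and 28.3% of AMs, 68.9% and 80.7% of SMs, and 89.3% and 90.0% of KCs held a Ly6e UMI. The share was higher in Zeb2KO by more than 10 percentage points in 4 of the 5 tissues, KCs being the exception. Unthinned, the share was 24.3% in WT AMs (median 3587 UMIs a cell) and 75.2% in Zeb2KO AMs (5682 UMIs). The cells of other types in these libraries carried Ly6e as well (224 CPM or more in each type of each library), so no type served as a background for it.

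The share of all genes called by the same rule was 8.34% in microglia, 1.56% in CMs and 4.6% in KCs. It was 11.7% in AMs, 3.16% in SMs and 1.35% between the WT liver libraries. Of the members with at least 20 CPM in either library, 3 of 3 were called higher in Zeb2KO microglia (Ly6a, Ly6e and Ly6i), 2 of 2 in CMs (Ly6a and Ly6e), 1 of 2 in KCs (Ly6a), 2 of 2 in AMs (Ly6c2 and Ly6e) and 1 of 2 in SMs (Ly6a). No member was called lower in any tissue. Ly6a and Ly6i in microglia, Ly6c2 in AMs and Ly6a in SMs entered these counts through the Zeb2KO library alone, as they were under 20 CPM in WT. A member that enters in this way is likely to be called, so the counts are a description of the members and not a result about the family. Ly6a in AMs did not enter, being low in both libraries. Scaling by TMM factors moved the AM ratios of all genes up by 0.27 at the median, and by less than 0.1 in every other tissue.

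**Figure D2:**
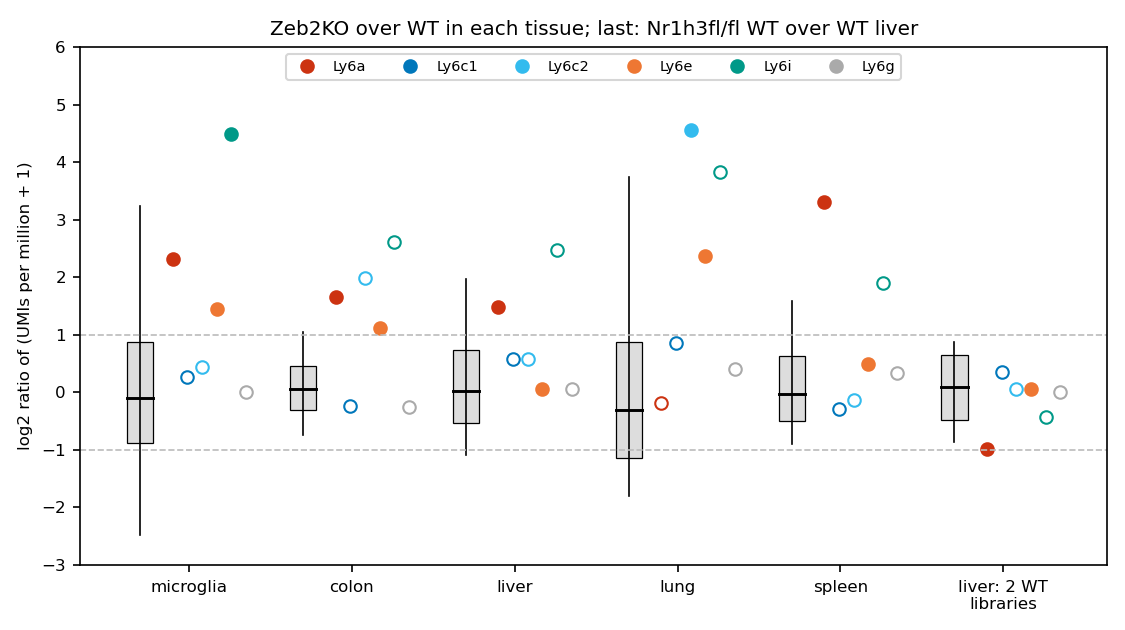
Log2 ratio of CPM plus 1, Zeb2KO over WT, for each member by tissue, and between the WT liver libraries in the last column. Filled circles have at least 20 CPM in either library, open circles have less. Bars span the 5th to 95th percentile of all genes considered, thin lines the 1st to 99th, and the thick line is their median. Filled circles lie above the upper dashed line for 9 of the 11 combinations of member and tissue considered, some of which entered through the Zeb2KO library alone. Ly6a sits at -0.99 between the WT liver libraries.

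Ly6a was low in WT macs other than KCs and was higher in the Zeb2KO library in 4 of the 5 tissues. In microglia it was 14.8 CPM in WT and 78.1 CPM in Zeb2KO, 5.26-fold (4.51 to 6.18). In CMs it was 24.5 and 79.1 CPM, 3.23-fold (3.01 to 3.47). In SMs it was 14.3 and 150 CPM, 10.5-fold (8.72 to 12.8), the 15th highest ratio of 6176 genes considered there. On the log2 scale this was 3.31, and it was 1.67 without a cluster led by neutrophil granule genes and 1.89 with all cells that passed the filter. AMs were the exception, with 2.22 CPM in WT and 1.85 CPM in Zeb2KO from 61 and 69 UMIs, 0.83-fold (0.58 to 1.20), under the level the rule considers. The levels of WT microglia and WT SMs did not differ beyond their intervals, nor did those of Zeb2KO microglia and Zeb2KO CMs. For comparison, a Ly6a UMI was found in 2.5% of 160 WT and 7.5% of 80 Zeb2KO erythroid-like cells of the spleen, at medians of 2678 and 4622 UMIs. In SMs it was found in 2.63% and 20.2% of cells at medians of 2225 and 2730 UMIs. The WT share was thus near that of these cells and the Zeb2KO share above it. Whether the Ly6a UMIs of erythroid-like cells came from free RNA was not tested.

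KCs held the highest Ly6a levels, and the liver comparison has a second control. Ly6a was 419 CPM in WT, 211 CPM in Nr1h3fl/fl WT and 1179 CPM in Zeb2KO KCs. The Zeb2KO level was 2.82-fold (2.75 to 2.88) that of the Zeb2fl/fl WT library and 5.59-fold (5.40 to 5.78) that of the Nr1h3fl/fl WT library. Against the latter 8.15% of all genes were called. The WT libraries differed from each other by a log2 ratio of -0.99, lower than in 99.1% of genes considered, just short of the rule. Zeb2KO was above the Zeb2fl/fl WT library by 1.49 and above the Nr1h3fl/fl WT library by 2.48 on the log2 scale. The first of these exceeded the size of the difference between the controls. The second had to exceed it, because Zeb2KO was above both controls and Nr1h3fl/fl WT was the lower of them. The share of cells with a Ly6a UMI after thinning was 27.8% in WT, 14.2% in Nr1h3fl/fl WT and 55.8% in Zeb2KO KCs. No cell type of the liver served as a background, since those left out also held Ly6a. In the WT library, unthinned, it was found in 71.8% of endothelial-like cells (338 CPM) and 53.1% of B cell-like cells (287 CPM), at medians of 6807 and 3548 UMIs, against 61.1% of KCs at 5367 UMIs. In the Zeb2KO library it was found in 76.4% of endothelial-like cells (791 CPM) and 65.9% of B cell-like cells (502 CPM), against 84.1% of KCs, and the levels of these cells too were above those in WT, with intervals apart.

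Ly6i, a close relative of Ly6a, was nearly absent from WT macs and was present at a low level in every Zeb2KO library. In microglia there was 1 UMI in WT (0.081 CPM) and 394 in Zeb2KO (23.3 CPM), a ratio of 287 with an interval of 51.2 to 11369. In AMs there were 3 UMIs in WT and 548 in Zeb2KO (0.11 and 14.7 CPM), a ratio of 134 (45.8 to 654). In CMs the level was 1.94 and 17.0 CPM, 8.79-fold (6.99 to 11.2). In KCs it was 0.86 and 9.30 CPM, 10.8-fold (6.89 to 17.7), with 0.38 CPM in Nr1h3fl/fl WT. Liver cluster 13, led by genes known from dendritic cells, held 10 of the 21 WT and 33 of the 241 Zeb2KO UMIs, at 16.2 and 61.0 CPM. In SMs 3 and 40 UMIs gave 0.36 and 4.10 CPM, a ratio of 11.3 (3.60 to 57.1). The intervals of WT and Zeb2KO were apart in 5 of 5 tissues, although only microglia reached 20 CPM. These intervals cover counting error only, and the share of all genes with intervals apart in as many tissues was not computed.

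Few cells held a Ly6i UMI, and those in the Zeb2KO libraries held 1.05 (SMs) to 1.84 (CMs) of them on average. At such levels a low share does not by itself show that the UMIs were concentrated in few cells. The shares in this paragraph are unthinned. A UMI was found in 9.25% of Zeb2KO microglia, 8.72% of Zeb2KO CMs, 7.21% of Zeb2KO AMs, 4.98% of Zeb2KO KCs and 1.26% of Zeb2KO SMs, against at most 1.25% in any WT library. For comparison with cells left out, 3.25% (0.89 to 8.12) of 123 fibroblast-like cells of the Zeb2KO colon library held a Ly6i UMI, at a median of 7259 UMIs a cell. In CMs it was 8.72% (7.85 to 9.65) at a median of 8546, and these intervals overlapped. In the Zeb2KO liver library 3.45% (1.79 to 5.95) of 348 endothelial-like cells held a Ly6i UMI at a median of 6918 UMIs. Of KCs 4.98% did at 5871, again with overlapping intervals, and 0.775% of 129 B cell-like cells did at 3765. In the Zeb2KO spleen library 1.25% (0.032 to 6.77) of 80 erythroid-like cells did, at a median of 4622 UMIs against 2730 for SMs. Of 367 B cell-like cells in that library 0% (0 to 1.0) held one at a median of 3032 UMIs, against 1.26% (0.89 to 1.73) of SMs, so the share of SMs could not be set apart from these types. No type of at least 50 cells was at hand for this comparison in the brain and lung libraries. Whether the Ly6i UMIs of left-out cells came from free RNA, doublets or the cells themselves was not tested.

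Ly6c2 reached 20 CPM in 1 library of 11, that of Zeb2KO AMs. In AMs it was 1.42 CPM in WT and 55.7 CPM in Zeb2KO, from 39 and 2078 UMIs, 39.2-fold (28.6 to 55.3). Unthinned, a UMI was found in 0.143% of WT and 10.5% of Zeb2KO AMs, and after thinning in 0.057% and 2.98%. The 63 Zeb2KO cells with the most held 40.0% of the UMIs. The 39 WT UMIs lay largely in 5 cells of a small cluster led by C1qa, C1qb and C1qc, which held 33 of them. That cluster, number 8, was 229 cells strong in Zeb2KO at 193 CPM, but a larger cluster led by Ceacam10, Krt8 and Cd177 with 3293 Zeb2KO and 0 WT cells held 1537 UMIs at 66.6 CPM. This was 73.7% of the Ly6c2 UMIs in all Zeb2KO lung cells that passed the filter, other cell types included, which is the base of each such percentage below. In the lung cluster led by genes of proliferation Ly6c2 had 0 UMIs in 208 WT cells and stood at 48.4 CPM in 273 Zeb2KO cells. This was 1 of the 3 lung clusters with at least 50 cells of both genotypes, and in the other two the intervals were not apart. Cluster 7 held 0 Ly6c2 UMIs in either genotype, and cluster 10 held 0 in 52 WT cells and 10 (19.0 CPM) in 83 Zeb2KO cells.

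In CMs Ly6c2 was 1.87 CPM in WT and 10.4 CPM in Zeb2KO, 5.54-fold (4.34 to 7.13), below the 20 CPM that the rule asks for. The share of Zeb2KO CMs with a UMI was 5.38% (4.69 to 6.13), and 4.07% (1.33 to 9.23) of 123 fibroblast-like cells in the same library held one. These intervals overlapped, so the share of CMs could not be set apart from that of the fibroblast-like cells. The latter also held 150 CPM of Ly6c1, whose reads can be shared with Ly6c2. In microglia there were 0 UMIs in WT and 6 in Zeb2KO, in KCs 4 and 19, and in SMs 10 and 10. The sum of Ly6c1 and Ly6c2 was 26.1-fold as high in Zeb2KO as in WT AMs and 2.86-fold as high in CMs, the same direction as Ly6c2 alone.

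Neutrophil and monocyte markers were also examined in AMs. The summed level of 9 neutrophil markers was 59.5 CPM in WT and 23891 CPM in Zeb2KO AMs, of which S100a8 gave 22.9 and 14194 CPM and S100a9 gave 0.036 and 9361 CPM. Camp and Ngp, which encode granule proteins made by maturing neutrophils, were at 0 UMIs in both libraries. Cxcr2, a chemokine receptor of neutrophils, was 2.70 CPM in WT and 178 CPM in Zeb2KO AMs, Csf3r, the receptor of G-CSF, was 12.02 and 95.95 CPM, and Mmp8 was 21.8 and 58.2 CPM. Ltf was 0.11 and 3.57 CPM, and Retnlg was at 0 UMIs in WT and 0.13 CPM in Zeb2KO. The summed level of 10 monocyte markers was 6090 and 20748 CPM, almost all of it Chil3, which AMs also express. Fn1, which encodes fibronectin, went the other way, at 318 CPM in WT and 90.3 CPM in Zeb2KO AMs. The other monocyte markers stayed at 10.9 CPM or less, the highest being Ccr2, the chemokine receptor of classical monocytes, at 3.32 and 10.9 CPM, and among them Vcan was 0.47 and 0.054 CPM. The part of these genes in the Ly6c2 result was not tested.

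Ly6c1 was low in every library, and Ly6g was at or near the limit of detection. Ly6c1 ranged from 0.081 CPM (WT microglia, 1 UMI) to 2.42 CPM (WT CMs, 105 UMIs), and in AMs it was 0.80 CPM in WT and 2.25 CPM in Zeb2KO, 2.81-fold (1.74 to 4.72). In CMs the ratio was 0.79-fold (0.57 to 1.08). Ly6g had 0 UMIs in 5 of the 11 libraries and at most 0.72 CPM, in Zeb2KO SMs. In AMs there were 0 UMIs in WT and 12 in Zeb2KO, 10 of them in the 83 Zeb2KO cells of cluster 10. CMs went the other way, with 10 UMIs in WT and 1 in Zeb2KO, 0.12-fold (0.0027 to 0.83). The floor of 3 UMIs that stands for a count of 0 was 0.11 CPM in WT AMs and 0.24 CPM in WT microglia, and the exact Poisson upper limits were 0.134 and 0.299 CPM. In the colon and spleen, where surface Ly6C and Ly6G were gated out, Ly6c2 ranged from 1.03 to 10.4 CPM. In the tissues sorted without that step it ranged from 0 UMIs to 0.73 CPM in microglia and KCs and stood at 1.42 CPM in WT and 55.7 CPM in Zeb2KO AMs. The gate and the tissue cannot be told apart.

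Some of the cells that were left out held more of a member than the macs of their tissue, although no left-out type held more than 1 UMI of Ly6g in any library. In the colon libraries endothelial-like cells held 960 CPM (WT) and 818 CPM (Zeb2KO) of Ly6c1, and plasma cell-like cells held 693 and 654 CPM of Ly6c2, from 14 and 23 cells. Fibroblast-like cells of the colon held 691 and 693 CPM of Ly6a, with overlapping intervals, and B cell-like cells of the spleen held 201 and 239 CPM. The Ly6a ratios of CMs and SMs moved when such cells were not removed. With all cells that passed the filter the log2 ratio was 1.07 in CMs, against 1.65, and 1.89 in SMs, against 3.31.

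Within the Zeb2KO libraries Ly6a and Ly6i were unevenly spread over cells. Cells were divided by whether they held at least 1 UMI of Siglecf, Ms4a1, Epcam or Cd101, which the study used as markers of macs that had lost Zeb2. In SMs, Ly6a was 340 CPM in 818 Zeb2KO cells with such a UMI and 57.2 CPM in 2196 cells without. In KCs it was 1719 CPM in 2037 cells and 547 CPM in 1902 cells, and in CMs 158 CPM in 734 cells and 57.8 CPM in 3154 cells. The cells without a marker UMI were still above the WT cells without one, which held 7.78 CPM in SMs, 23.0 CPM in CMs and 420 CPM in KCs. Zeb2KO microglia showed no such division, with 78.3 CPM in 2765 cells with a marker UMI and 76.9 CPM in 478 cells without. The study observed macs that kept a Zeb2 allele in every organ other than the brain. Lack of a marker UMI therefore does not show that a cell had kept Zeb2. In CMs and SMs, cells with SiglecF on their surface had also been gated out. Whether Ly6a was higher in Zeb2KO cells that kept a Zeb2 allele was not tested.

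**Figure D3:**
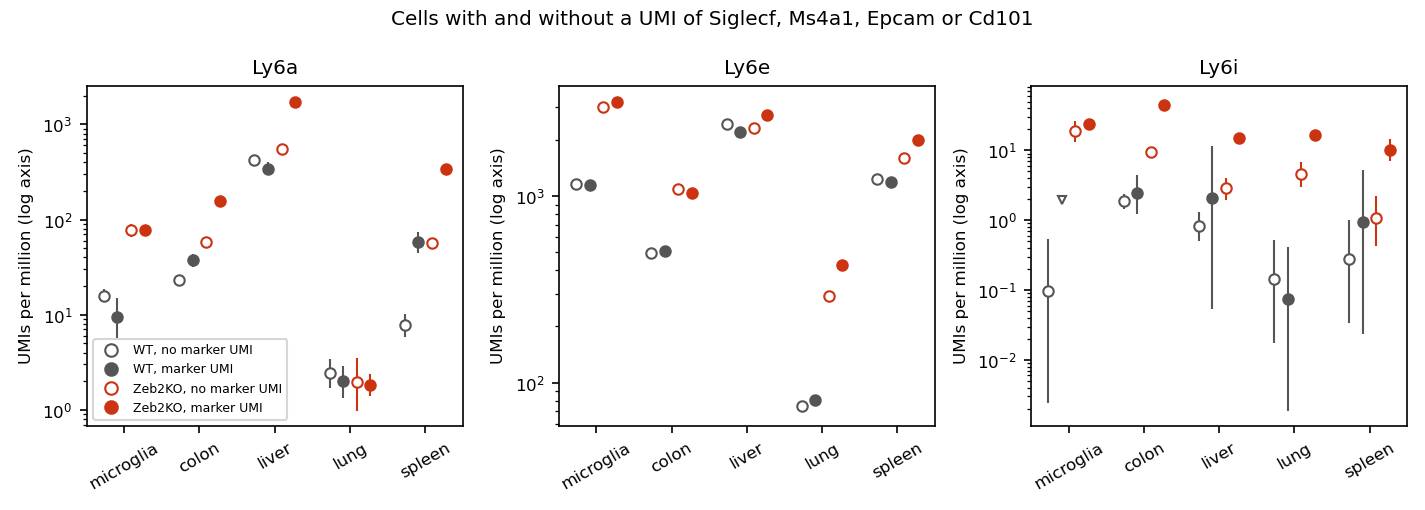
Levels of Ly6a, Ly6e and Ly6i (CPM, log axis, exact Poisson 95% intervals) in WT (grey) and Zeb2KO (red) cells with (filled) and without (open) a UMI of Siglecf, Ms4a1, Epcam or Cd101. Triangles pointing down give the exact Poisson upper limit where no UMI was counted. Ly6a is higher in filled than in open red circles in colon, liver and spleen and equal within intervals in microglia.

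Ly6i was divided in the same direction as Ly6a in 3 tissues, with 14.8 CPM in Zeb2KO KCs with a marker UMI and 2.85 CPM in those without, 45.1 and 9.44 CPM in CMs, and 10.3 and 1.07 CPM in SMs. In AMs Ly6i was 16.5 and 4.65 CPM with intervals apart, whereas Ly6a was 1.83 and 1.97 CPM with overlapping intervals. Ly6e was 2708 and 2325 CPM in KCs and 2012 and 1603 CPM in SMs. In CMs it was 1044 CPM in Zeb2KO cells with a marker UMI and 1087 CPM in those without, both above the 494 CPM of WT cells without one. Cells with a marker UMI were deeper, with a median of 9652 against 8273 UMIs in Zeb2KO CMs and 3482 against 2514 UMIs in SMs. The division was also seen in WT. In WT CMs Ly6a was 37.4 CPM (32.0 to 43.6) in cells with a marker UMI and 23.0 CPM (21.5 to 24.5) in those without. In WT KCs it ran the other way, with 342 CPM (292 to 399) and 420 CPM (412 to 429). Ms4a1 is a B cell gene, and WT SMs with a marker UMI held more Ly6a (58.1 CPM, 302 cells) than those without. In the lung Siglecf is an AM gene, and 44.8% of WT AMs held a marker UMI.

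Cells were also grouped by clustering within each tissue, with the 6 members and the 4 markers left out of the genes that drove it. Cluster values are a description. In the liver, Ly6a was highest in cluster 1, led by Siglecf, Il1r2 and Ddit4. It had 0 WT and 1924 Zeb2KO cells at 1932 CPM and held 71.2% of the Ly6a UMIs of the Zeb2KO library. In clusters with at least 50 cells of both genotypes Ly6a was not generally higher in Zeb2KO KCs: intervals were apart with Zeb2KO higher in 2 of 7 clusters and lower in 3. In the largest WT cluster Ly6a was 425 CPM in 1922 WT cells and 236 CPM in 103 Zeb2KO cells.

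CMs differed from KCs in this respect. Ly6e was higher in Zeb2KO with intervals apart in 8 of 8 colon clusters that both genotypes shared, by 1.46-fold to 2.30-fold, and Ly6a in 7 of 8. Colon cluster 5, with 26.0 CPM in 592 Zeb2KO and 67.3 CPM in 150 WT cells, was the exception for Ly6a. Such counts of clusters, here and in the liver and lung, come from 1 library per genotype, so the clusters are not replicates. The share of all genes with intervals apart in as many clusters was not computed. Ly6i and Ly6c2 were concentrated in colon cluster 4, led by Hp, Mmp8 and Ms4a1, with 786 Zeb2KO and 50 WT cells. There Ly6i was 67.4 CPM in Zeb2KO and 50.9 CPM in WT cells, with overlapping intervals, and the cluster held 79.5% of the Ly6i UMIs of the Zeb2KO library. Ly6c2 was 32.5 CPM in the Zeb2KO cells of that cluster and 0 UMIs were counted in the WT cells.

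In the spleen a cluster led by S100a8, S100a9, Camp and Ngp, genes known from neutrophils, held 693 Zeb2KO and 14 WT cells. Its Zeb2KO cells held 464 CPM of Ly6a and 61.8% of the Ly6a UMIs of their library. Without this cluster the log2 ratio of Ly6a in SMs was 1.67, against 3.31 with it. The summed level of 9 neutrophil markers was 398 CPM in WT and 294 CPM in Zeb2KO SMs, and Ly6g had 3 and 6 UMIs in this cluster. S100a8 was 179 CPM in WT and 124 CPM in Zeb2KO SMs, not higher in the library with most of the cluster's cells. How many of the 693 Zeb2KO cells held the leading genes is not given here, so the cluster as a whole is not named as neutrophils. Leaving out instead the kept clusters led by B cell genes and by proliferation genes with Xcr1 gave 4.13. Both alternatives were chosen after seeing the data, and the part of these cells in the Ly6a result was not tested. In the 3 spleen clusters with at least 50 cells of both genotypes, intervals were apart with Zeb2KO higher in 2 for Ly6a and in 3 for Ly6e, and lower in 0 for either. For Ly6e the ratios there were only 1.16-fold to 1.33-fold. These clusters too come from 1 library per genotype, and the share of all genes with intervals apart in as many of them was not computed.

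In the brain almost no cluster was shared. Ly6e was 2584 to 4293 CPM in the 5 clusters with at least 50 Zeb2KO cells and 1035 to 1304 CPM in the 3 with at least 50 WT cells. The highest level stood in cluster 5, led by Ifit1, Rsad2 and Ifitm1, which belong to the interferon response. The 233 Zeb2KO microglia of cluster 5 also held 343 CPM of Ly6a and 72.3 CPM of Ly6i, above every other microglia cluster of that library. The 15 WT microglia in it held 431 CPM of Ly6a (295 to 609) and 2452 CPM of Ly6e (2109 to 2836) but no Ly6i UMI. Of the other Zeb2KO microglia clusters, the 4 with at least 50 cells held 34.7 to 77.1 CPM of Ly6a, above the 5.48 to 14.6 CPM of the WT clusters.

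**Figure D4:**
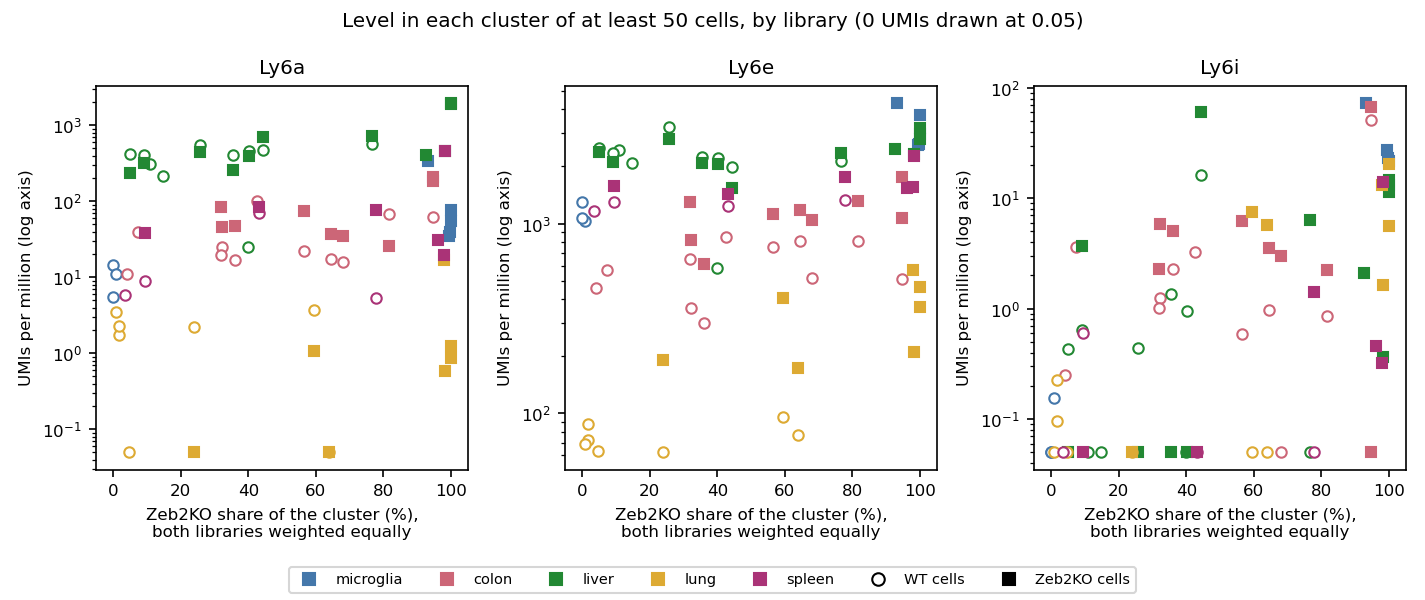
Level of Ly6a, Ly6e and Ly6i (CPM, log axis) in each cluster and library with at least 50 cells, against the share of the cluster's cells that came from Zeb2KO, the WT and Zeb2KO libraries weighted equally and the Nr1h3fl/fl WT library not drawn. 0 UMIs are drawn at 0.05. Open circles are WT and filled squares Zeb2KO cells, coloured by tissue. Liver squares reach the top of the Ly6a panel only near 100%, and colon squares lie above colon circles of the same cluster for Ly6e.

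The shift over the 5 tissue pairs was tested with tissue as a block on summed UMIs. With edgeR's quasi-likelihood test 0 of 12171 genes passed an adjusted p of 0.05 (0% called), 1451 had an unadjusted p under 0.05 (11.9%), and with DESeq2 361 passed (2.97%). No member passed in edgeR. The log2 difference was 4.52 (SE 0.75, adjusted p = 0.197) for Ly6i, 1.84 (SE 0.46, adjusted p = 0.27) for Ly6a, 1.15 (SE 0.38, adjusted p = 0.35) for Ly6e, 2.97 (SE 0.90, adjusted p = 0.314) for Ly6c2 and 0.86 (SE 0.57, adjusted p = 0.564) for Ly6c1 by edgeR's quasi-likelihood test with Benjamini-Hochberg adjustment. Ly6g was too low to be tested.

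With DESeq2, 4 of the 5 members tested passed, all higher in Zeb2KO: Ly6i (log2 difference 4.78, adjusted p = 6.14e-09), Ly6a (1.82, adjusted p = 0.00107), Ly6c2 (2.71, adjusted p = 0.0122) and Ly6e (1.14, adjusted p = 0.0433). The level was higher in Zeb2KO in 5 of 5 tissues for Ly6i and Ly6e, in 4 of 5 for Ly6a and Ly6c2, and in 3 of 5 for Ly6c1 and Ly6g. Intervals were apart in all of these tissues for Ly6i, Ly6e and Ly6a, in 3 for Ly6c2, in 2 for Ly6c1 and in 1 for Ly6g. For Ly6e these tissues include KCs at 1.04-fold, and its intervals were also apart between the WT liver libraries, at 1.05-fold. The share of all genes higher, or with intervals apart, in as many tissues was not computed. Without the lung pair the edgeR difference of Ly6c2 was 1.78, against 2.97 with it.

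Genes beyond the 6 members were looked at by lists. Of 32 other genes of the Ly6 and uPAR family, 30 were measured and 3 reached 20 CPM in any library: Plaur, the urokinase receptor, at 330 CPM in WT and 453 CPM in Zeb2KO AMs, Ly6d, at 62.0 and 52.6 CPM in SMs, and Gpihbp1, which carries lipoprotein lipase across capillaries, at 16.6 and 28.2 CPM in KCs. None was called in any tissue's Zeb2KO against its Zeb2fl/fl WT. Gpihbp1 was called higher against the Nr1h3fl/fl WT liver library, where it was 7.26 CPM.

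Of 22 interferon-stimulated genes, all reached 20 CPM in some library. In Zeb2KO microglia 6 of the 13 considered were called higher, in SMs 3 of 19, in AMs 2 of 7, in CMs 0 of 15 and in KCs 0 of 22, and none was called lower. Their median log2 ratio was 0.96 in microglia (all genes considered -0.09), 0.36 in SMs (-0.02), 0.72 in AMs (-0.31), 0.37 in CMs (0.05) and 0.05 in KCs (0.02). These genes too could enter through the Zeb2KO library alone. Those with the highest levels were Ifi27l2a, Bst2, Irf7 and Psmb8. Ifi27l2a was 37.1 CPM in WT and 152 CPM in Zeb2KO microglia, and 2227 and 1942 CPM in KCs. Irf7, a transcription factor that amplifies the interferon response, was 8.51 and 21.4 CPM in microglia and 572 and 453 CPM in KCs. Other listed genes were higher in Zeb2KO KCs without reaching the rule. Psmb8, an immunoproteasome subunit, was 482 CPM in WT and 530 CPM in Zeb2KO KCs, and Isg15, a ubiquitin-like protein, was 163 and 259 CPM. Ifi44 was just short of the rule at 18.7 and 38.3 CPM, and Isg15 and Ifi44 were chosen here after their values were seen.

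Over the 11 libraries the genes most like Ly6a in level, among 8034 ranked by Pearson's r of log2(CPM + 1), were Rtp4 (r = 0.96, Spearman's rho = 0.97), Isg15 (r = 0.95, rho = 0.95) and Psme1 (r = 0.95, rho = 0.94). Those most like Ly6e were Slfn8 (r = 0.95, rho = 0.91), Igtp (r = 0.94, rho = 0.84) and Ifnar2 (r = 0.93, rho = 0.83). These values are given as a description. The 11 points share tissues, and the genes were chosen as the highest of many.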

How the data were processed

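Single-cell libraries (10x Genomics, 3′ counting) of sorted macs were used. The authors deposited whole-number UMI counts per gene and barcode for each library, made with CellRanger on mm10, in an earlier release for KCs and AMs than for the other macs, by the study's methods. From these counts, barcodes beyond 3 MADs in UMIs, genes or mitochondrial share were dropped, the rest clustered per tissue (scanpy 1.11.5, leidenalg 0.10.2, 2000 variable genes, 30 components, 15 neighbours, resolution 0.8; the 6 Ly6 genes, Zeb2, 4 Zeb2-loss markers and sex-linked, mitochondrial, ribosomal and immunoglobulin genes excluded) and the 19 of 77 clusters that scored for another cell type removed. Scrublet called at most 0.0566% of cells, so it did not work here and doublets were not removed. UMIs were summed per library and divided by the library total (CPM). edgeR 4.0.16 (filterByExpr, TMM) and DESeq2 1.42.0 were run over the 5 pairs, and the edgeR step was tested on simulated data. Shares of cells were computed unthinned and after a random draw of 1000 UMIs a cell, which left out 268 WT SMs. Only shares given as thinned come from that draw, and the others are not corrected for depth. Named genes were the 6 members, up to 4 genes of each list with the highest CPM, the 3 genes most correlated with a member, and the markers above; genes that lead a cluster or carry a marker list were named after their values were seen. The members and lists were chosen with earlier results of these data known. With 1 library per tissue and genotype, the spread between the 5 pairs is the only replicate error.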

Additional observations from a re-analysis of the deposited data

How the results depend on the processing

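Within a tissue, alternatives to scaling, pseudocount, floor and choice of cells left the number of members called within 1.5 times in 57 of 61 cases. With a floor of 5 CPM, 4 members were called in CMs (Ly6c2 and Ly6i added) and 2 in KCs (Ly6i added), and Ly6i was called in AMs as well (3 members). Each added member was under 5 CPM in WT, so it entered through the Zeb2KO library alone and was likely to be called. The share of all genes called at these other floors is not given here. A floor of 50 CPM left 2 of 3 members called in microglia and ended the Ly6i call there, the only one made for that gene at 20 CPM. Between the WT liver libraries, Ly6a (1 member) was called with TMM factors and, chosen after seeing the data, without further clusters of mixed type. No called log2 ratio changed sign. Those of Ly6a in SMs spanned 1.67 to 4.13, in CMs 1.05 to 1.75 and in KCs 1.44 to 2.48, of Ly6i in microglia 2.48 (pseudocount of 5 CPM) to 4.52, and of Ly6c2 in AMs 3.24 to 4.80. Ly6e in KCs, not called, ran from -0.01 (against Nr1h3fl/fl WT) to 0.07. All 17 thinned shares of 5% or more were higher at 2000 UMIs and without thinning. More UMIs a cell raise such a share by themselves, so this is no check of the difference between genotypes. In the fit over the 5 pairs, DESeq2 called 361 genes, a filter of 1 UMI gave 3, and leaving out each pair in turn gave 0 to 1. Apart from DESeq2, no setting called a member, and each of the 5 members tested stayed higher in Zeb2KO under all 12 alternatives. The pairs are the tissues, and without tissue as a block 0 genes passed in edgeR (97 had an unadjusted p under 0.05). The labels give no replicate numbers to pair by. Depth limits Ly6g, with at most 12 UMIs a library, and Ly6c1 in the 8 libraries with under 25 UMIs.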
